A study of Mus musculus with 8 samples.

Results

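The insulin-like growth factor (IGF) genes described here are the 2 ligands Igf1 and Igf2, the receptors Igf1r and Igf2r and the binding proteins Igfbp2 to Igfbp7. They were chosen by gene symbol, 10 of the 49315 Ensembl gene IDs counted, and all 10 were among the 17743 genes that passed the filter on low counts. RNA was sequenced from the calvaria (skull cap) of female C57BL6 mice aged 2 to 3 days. Wild-type mice (4 libraries, here WT1 to WT4) carried no named allele, and knockout mice (4 libraries, KO1 to KO4) lacked Girk3, a potassium channel subunit encoded by Kcnj9, in the whole animal. The labels name no litter, batch or treatment, and do not say whether animals were pooled. Levels written with ± are means with the SD over the 4 libraries of a genotype, wild type first and knockout after it unless stated, and log2 changes are knockout over wild type with the SE.

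Both IGFs are secreted peptides that act through the tyrosine kinase receptor encoded by Igf1r, and IGF1 is a growth factor for bone-forming cells. Igf2r encodes a receptor that binds IGF2, takes it up for breakdown in lysosomes and does not signal as a kinase. The binding proteins hold IGFs in tissue and fluid. Depending on the protein and on the proteases that cut it, they keep the ligand from its receptor or release it there. In mice Igf2 is expressed from the paternal and Igf2r from the maternal chromosome, and both are most active before and around birth.

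Totals ran from 35.4 M to 54.3 M counts, and KO4 had the lowest total but reads in the most genes, 28520 against 24545 to 25729 in the others. Kcnj9 held 0 to 4 counts in wild-type and 2 to 9 in knockout libraries, so it does not check the labels, and knockout below means the libraries labelled so. The tissue label was matched by 9 osteoblast markers, among them Col1a1, Ibsp and Bglap. Their CPM (counts per 1000000 of the library) summed to between 152540 and 187460. Most of this sum came from the 2 collagen genes Col1a1 and Col1a2, at means of 85440 and 74751 CPM in wild type. Marker sums here and below use library totals, whereas the CPM of single genes is TMM-scaled. Of these 9 markers 7 had a log2 change below 0 and 1 was called, Bglap (osteocalcin), which fell from 1072 ± 129.9 to 767 ± 73.7 CPM (edgeR adjusted p = 0.0383). Skeletal muscle RNA was uneven: 10 muscle markers summed to 29.1 CPM in WT3, 63.2 in KO2 and 176 in KO3, against 755 to 2798 in the other 5 libraries. The 9 macrophage markers summed to 575 to 764 CPM in wild type and 447 to 556 CPM in knockout, with all 9 lower on average in knockout and 2 of them called. The cartilage, brain, epidermis, erythroid, endothelial and meningeal lists had no called gene. Markers at 0 counts in at least 1 library were the brain genes Olig2, Slc17a6 and Neurod1, the epidermal genes Krt5 and Krt14 and the meningeal gene Slc6a13.

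In the genome (GRCm38/mm10, GENCODE release M21) the members lie on 7 chromosomes. Igf2 (ENSMUSG00000048583) is on chromosome 7 from 142650766 to 142666816 on the minus strand, and Igf1r (ENSMUSG00000005533) is on the same chromosome from 67952827 to 68233668 on the plus strand. Igf1 (ENSMUSG00000020053) is on chromosome 10 from 87858265 to 87937042 (plus strand) and Igf2r (ENSMUSG00000023830) on chromosome 17 from 12682406 to 12769664 (minus strand). Igfbp2 (ENSMUSG00000039323, 72824503 to 72852474, plus strand) and Igfbp5 (ENSMUSG00000026185, 72857932 to 72874884, minus strand) are neighbours on chromosome 1, 99.5 and 99.4 Mb from Kcnj9. Igfbp3 (ENSMUSG00000020427, 7206086 to 7213923, minus strand) and Igfbp4 (ENSMUSG00000017493, 99041244 to 99054392, plus strand) are on chromosome 11. Igfbp6 (ENSMUSG00000023046) is on chromosome 15 from 102144362 to 102149511 (plus strand) and Igfbp7 (ENSMUSG00000036256) on chromosome 5 from 77349240 to 77408041 (minus strand).

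The 150 bases before a transcription start are printed for Igf2, Igf1r and Igfbp7, the 3 members of smallest unadjusted p, and for Igfbp4, 1 of 2 members with a TATA box. Capitals mark the GC box, GGGCGG or its reverse complement CCGCCC, a motif bound by SP1, and the TATA box, TATAAA or TTTATA; the motifs do not overlap each other. The sequences are from RefSeq (GRCm38.p6), read 5′ to 3′ toward the start: Igf2 at chr7:142657497-142657646 on the minus strand (the most downstream of its 4 starts, with the most GC boxes of them), Igf1r at chr7:67952107-67952256 on the plus strand, Igfbp7 at chr5:77408046-77408195 on the minus strand and Igfbp4 at chr11:99041094-99041243 on the plus strand.
Igf2: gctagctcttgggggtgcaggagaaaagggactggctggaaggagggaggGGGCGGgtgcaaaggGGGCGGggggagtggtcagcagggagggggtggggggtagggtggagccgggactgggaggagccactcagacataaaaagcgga
Igf1r: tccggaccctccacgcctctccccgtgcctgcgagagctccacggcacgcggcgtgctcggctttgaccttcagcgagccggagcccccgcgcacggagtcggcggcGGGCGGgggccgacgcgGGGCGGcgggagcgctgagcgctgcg
Igfbp7: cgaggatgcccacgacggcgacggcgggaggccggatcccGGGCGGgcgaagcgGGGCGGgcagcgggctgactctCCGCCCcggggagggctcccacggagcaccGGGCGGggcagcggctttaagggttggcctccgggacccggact
Igfbp4: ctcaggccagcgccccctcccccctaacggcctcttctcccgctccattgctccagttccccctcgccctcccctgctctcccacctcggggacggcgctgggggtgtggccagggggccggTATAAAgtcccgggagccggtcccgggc

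All 10 members had at least 1 such window in the RefSeq table, 14 in all, since Igf2 has 4 starts and Igfbp2 has 2. A GC box was in 6 of the 14 windows, against 28.6% of 32851 windows of the same length over all genes, and a TATA box in 2 of 14, against 7.57%. The Igf1r window holds 26 CpG dinucleotides, the Igfbp7 window 21 and the Igf1 window 4, where the median over all windows is 4. The deposited counts are per gene, so reads from the 4 Igf2 starts were not separated. These matches describe letters in the windows and say nothing about which factors bind there.

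Igf2 was the most abundant member in every library. In TPM (counts per kilobase of exon, scaled to the same sum of 1000000 in each library), it stood at 2099 ± 217 for wild type and 2616 ± 200 for knockout (n = 4 each), and ranked 37th of all genes by its mean level. Igfbp5, a binding protein that attaches to bone matrix, followed at 1272 ± 161 and 1386 ± 142 TPM. Igfbp4, an inhibitor of IGF action that the protease PAPP-A cuts, held 580 ± 16 TPM in wild type, Igfbp7 550 ± 30.5 TPM and Igfbp3, the main carrier of IGFs in blood, 431 ± 50.1 TPM. Below them came Igf2r at 105 ± 18 TPM, Igf1 at 88.2 ± 13.2 TPM, Igfbp2 at 56 ± 8.34 TPM and Igfbp6, a binding protein that prefers IGF2, at 41.4 ± 17.8 TPM. Igf1r was last at 16.1 ± 0.695 TPM, close to its relative the insulin receptor gene Insr at 15.5 ± 1.58 TPM.

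**Figure D1:**
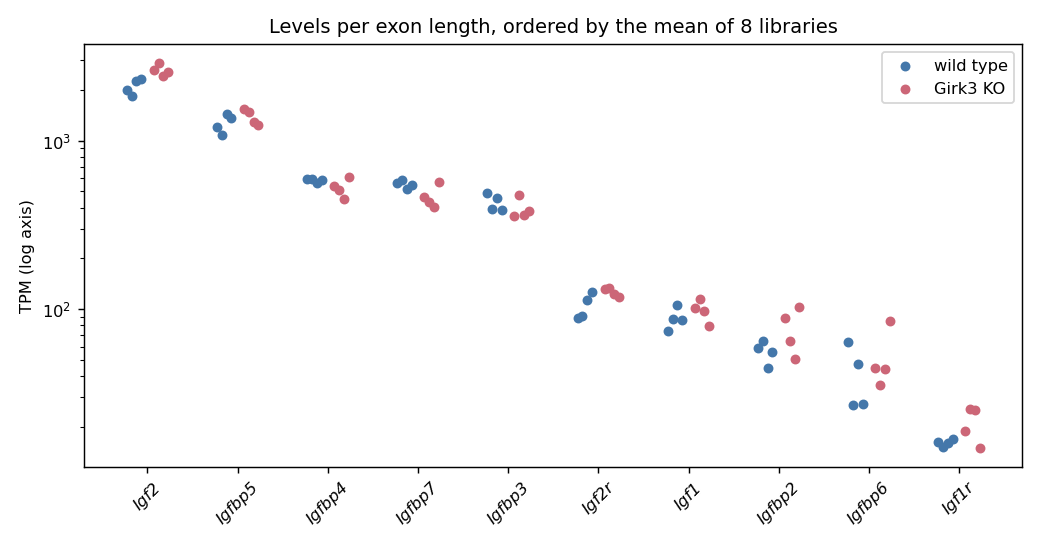
Level of each gene per exon length (TPM, log axis) in each of 4 wild-type (blue) and 4 knockout (red) libraries, ordered by the mean of all 8. Igf2 and Igfbp5 stand above the rest in every library and Igf1r lies lowest, at 15 to 25.6 TPM.

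In this order Igf2, Igfbp5 and Igfbp4 did not overlap in range over the 8 libraries, nor did Igfbp3 and Igf2r, nor Igfbp6 and Igf1r. Igfbp4, Igfbp7 and Igfbp3 overlapped with their neighbours, as did Igf2r, Igf1, Igfbp2 and Igfbp6. Levels depend on the length used. With the longest transcript in place of all exon bases Igfbp3 passed Igfbp7 and Igf1 passed Igf2r, while the other 6 positions were the same. Igf2 made up 96.0% ± 0.521 of the summed ligand TPM of wild-type libraries and 96.4% ± 0.40 of that of knockout libraries. Igf2 exceeded Igf1 24.1 ± 3.24-fold and 26.9 ± 3.41-fold, and Igf2r exceeded Igf1r 6.51 ± 0.927-fold and 6.22 ± 1.43-fold. H19, the maternally expressed non-coding gene next to Igf2, was at 6433 ± 136 TPM in wild type and 6914 ± 584 TPM in knockout.

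Between the genotypes, no member passed edgeR's quasi-likelihood test at an adjusted p under 0.05 over all genes. That threshold called 1.32% of the tested genes, 0.445% higher and 0.874% lower in knockout. Of those calls 66.2% were lower, or 46.7% when scaled to library totals alone rather than by TMM. An unadjusted p under 0.05 was reached by 3 of 10 members against 17.4% of all genes. These were Igf2 and Igf1r, higher in knockout as were 8.29% of genes, and Igfbp7, lower as were 9.11%. DESeq2 called 1 member, Igf2, against 5.37% of all genes. In TMM-scaled CPM all 10 overlapped between the genotypes, whereas 10.6% of tested genes did not. For Igf2 this depended on the scaling, as given below. The median log2 change of the members was 0.13, against -0.00029 over all tested genes, with 7 members above 0 and 3 below, where 49.9% of genes were above 0.

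**Figure D2:**
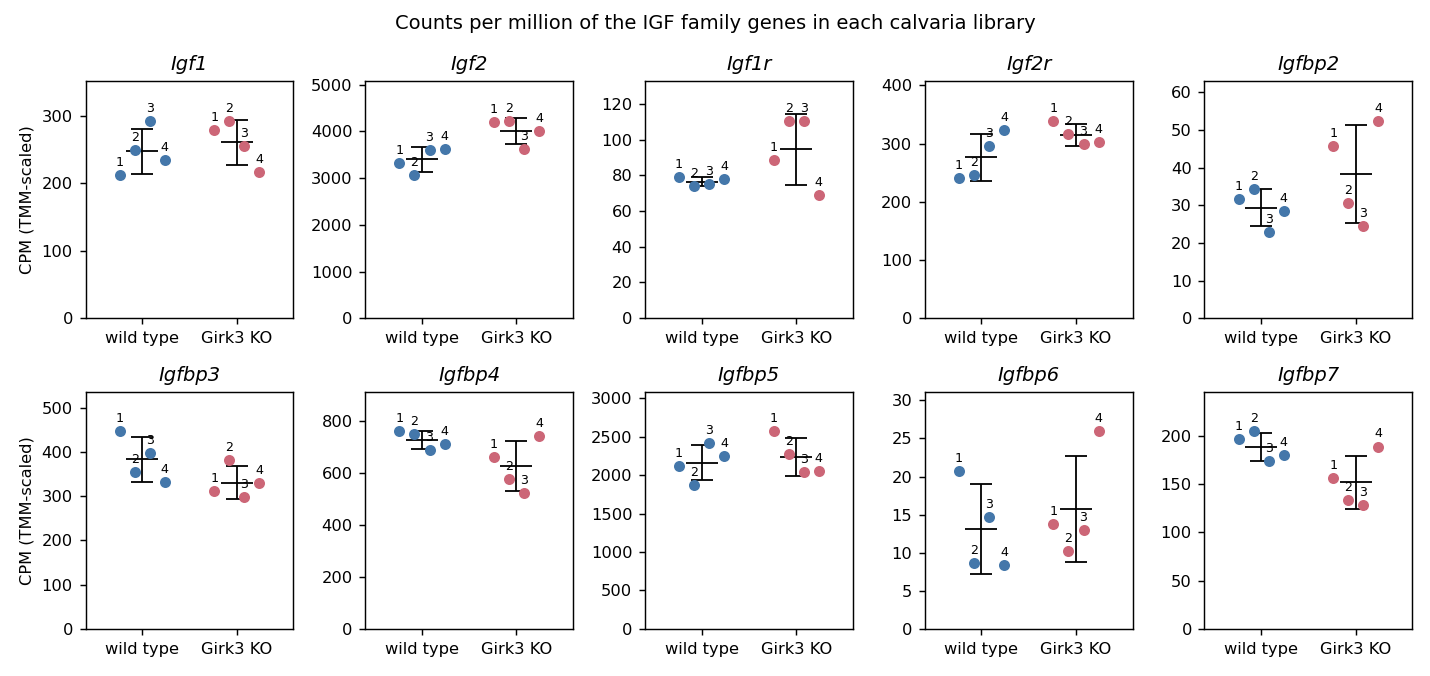
CPM scaled by TMM factors in each library, 4 wild-type (blue) and 4 knockout (red) points per gene with the replicate number above each and the mean ± SD in black. Every gene overlaps between the genotypes, and knockout replicate 4 is the lowest knockout library for Igf1r and the highest for Igfbp4 and Igfbp7.

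Among the ligands, Igf2 had the smallest p of the family. It was at 3320.4, 3059, 3596 and 3631 CPM in WT1 to WT4 and at 4207, 4232, 3622 and 4001 CPM in KO1 to KO4. On this TMM-scaled measure KO1, KO2 and KO4 lay above every wild-type library, and KO3 lay among them. In TPM, which uses no TMM factor, Igf2 did not overlap. It ran from 1849 to 2309.5 TPM in wild type and from 2405 to 2878.5 TPM in knockout. The share of all genes without overlap in TPM was not computed. The ratio was 1.18-fold (95% interval 1.04 to 1.34; log2 change 0.24 ± 0.0834), with adjusted p = 0.174 in edgeR and 0.0434 in DESeq2, at nearly the same log2 change of 0.25. Over all left-out libraries the edgeR adjusted p ran from 0.136 to 0.387. In GENCODE M21, 64.5% of the Igf2 exon bases overlap Igf2os on the opposite strand or Gm49394 on the same strand. Igf2 held 127251 to 238565 counts and Igf2os 321 to 616, and Gm49394 was not among the gene IDs counted. Igf2os shares 1240 of its exon bases with Igf2 or Gm49394. How reads in the overlap with Igf2os were assigned is not known, so the Igf2 value is less certain.

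Igf1, made in bone by osteoblasts among other cells and elsewhere by liver and macrophages, overlapped between the genotypes. Wild-type libraries held 213, 249, 293 and 235 CPM, and knockout libraries 279, 293, 255 and 217 CPM. The log2 change was 0.077 ± 0.112 (edgeR adjusted p = 0.766), an interval of 0.891 to 1.25-fold. The sum of the macrophage markers above was lower in knockout than in wild type without overlap. Taken singly, C1qa, C1qb, Cd14, Cd68 and Mrc1 overlapped. The part of these markers in the Igf1 value was not tested. In whole tissue, fewer cells of a type and less RNA per cell cannot be told apart.

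Of the receptors, Igf1r was at 79.2, 73.8, 75.2 and 77.9 CPM in wild type, a narrow range, and at 88.7, 110, 111 and 69.2 CPM in knockout. KO1, KO2 and KO3 lay above all wild-type libraries and KO4 below all of them. The ratio was 1.24-fold (95% interval 1.02 to 1.51; log2 change 0.31 ± 0.129; edgeR adjusted p = 0.251). Without KO4 the log2 change was 0.44 and the edgeR adjusted p 0.0208, in a fit that called 3.37% of genes. KO2 and KO3, the highest, were poor in muscle RNA. Among the 5 libraries rich in it (WT1, WT2, WT4, KO1 and KO4) the log2 change was 0.045 (edgeR adjusted p = 0.941). That fit left out KO2 and KO3 but kept KO4, and it called only 8 genes. WT3, the poorest in muscle RNA of all, held 75.2 CPM, within the range of the other wild-type libraries.

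Igf2r ran from 240 to 323 CPM among wild-type and from 299 to 340 CPM among knockout libraries, and only KO1 exceeded all wild-type libraries. Its log2 change was 0.19 ± 0.0978 (edgeR adjusted p = 0.342), an interval of 0.983 to 1.32-fold. WT1 and WT2, at 240 and 246 CPM, lay below the other 6 libraries.

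Among the binding proteins Igfbp7 differed most by p. It binds IGFs more weakly than the other members and is abundant in blood vessels. Wild-type libraries held 197, 205, 174 and 179.9 CPM and knockout libraries 157, 133, 129 and 189 CPM. KO1, KO2 and KO3 lay below every wild-type library, whereas KO4 lay among those. The ratio was 0.804-fold (95% interval 0.676 to 0.956; log2 change -0.31 ± 0.114; edgeR adjusted p = 0.189). Without KO4 the log2 change was -0.43 and the edgeR adjusted p 0.0259. The 6 endothelial markers, all with a log2 change under 0 and none called, summed to 458 to 544 CPM in WT and 442 to 535 CPM in KO libraries, and their part in the Igfbp7 value was not tested. In 7.03% of its exon bases Igfbp7 overlaps Polr2b on the opposite strand, a gene with 2015 to 3233 counts per library where Igfbp7 had 5694 to 8767, so its value is less certain.

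Igfbp4 showed the same order of libraries as Igfbp7 within knockout. It was at 761, 751, 687 and 711 CPM in wild type and at 663, 579, 523 and 743 CPM in knockout, so that again KO1, KO2 and KO3 lay below all wild-type libraries and KO4 did not. Its log2 change was -0.22 ± 0.101 (edgeR adjusted p = 0.298) and its lowest adjusted p with 1 library left out was 0.0791, without KO4. Igfbp3 ran from 332 to 447 CPM among the wild-type and from 298 to 382 CPM among the knockout libraries. KO1, KO3 and, narrowly, KO4 lay below the wild-type range, and KO2 lay within it. Its log2 change of -0.21 ± 0.105 had an edgeR adjusted p of 0.316. The interval of the ratio was 0.739 to 1.00-fold for Igfbp4 and 0.736 to 1.01-fold for Igfbp3.

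Igfbp5 had the largest p of the family, with wild-type libraries at 1872 to 2420 CPM and knockout libraries at 2037 to 2571 CPM. Its log2 change was 0.046 ± 0.0998 (95% interval -0.17 to 0.26; edgeR adjusted p = 0.858). Igfbp2 and Igfbp6 varied most within a genotype. Igfbp2 ran from 23.0 to 34.3 CPM in WT and from 24.5 to 52.5 CPM in KO libraries, lowest in WT3 and KO3 and highest in KO1 and KO4 (log2 change 0.38 ± 0.254; edgeR adjusted p = 0.485). Igfbp6 ran from 8.37 to 20.8 CPM and from 10.2 to 25.9 CPM, highest in WT1 and KO4 (log2 change 0.26 ± 0.416; edgeR adjusted p = 0.802). The interval for Igfbp6, 0.599 to 2.38-fold, was the widest of the family. Igfbp1, the other binding protein gene of this family, held 1 count in each of WT4 and KO1 and 0 in the rest.

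**Figure D3:**
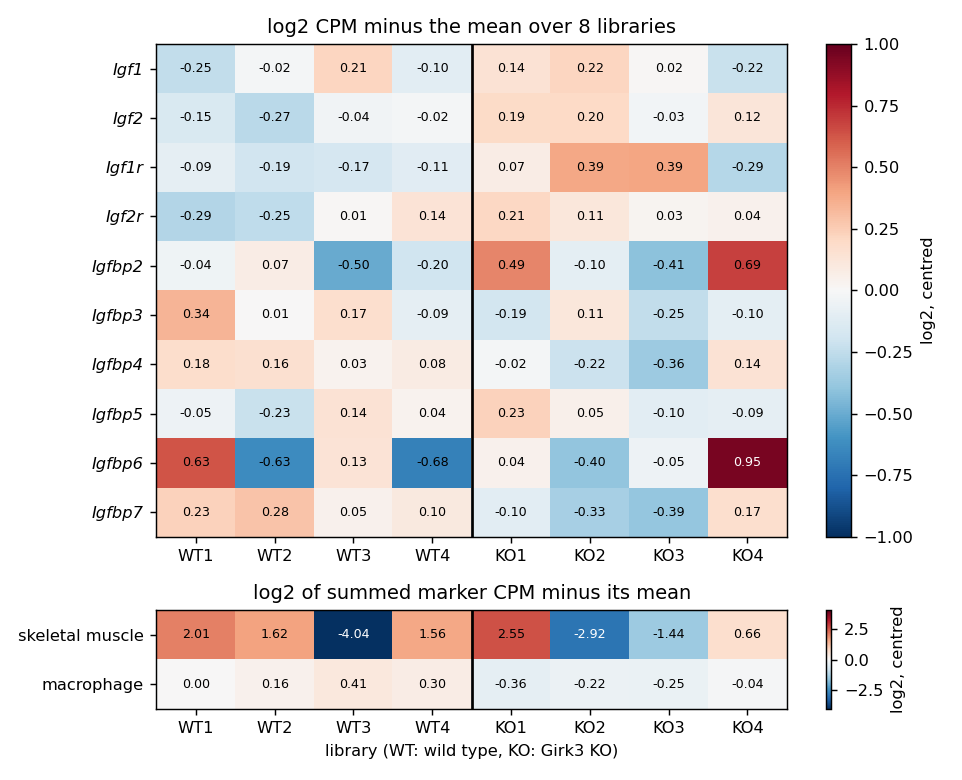
Upper panel: log2 CPM of each gene minus its mean over the 8 libraries. Lower panel: log2 of the summed CPM (by library totals) of 10 skeletal muscle and 9 macrophage markers minus its mean. KO2 and KO3 hold the highest Igf1r and lowest Igfbp7 values, and KO4 runs against them in both.

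Within the groups, libraries differed in several members together. KO4, the library with the most genes detected, was the highest knockout library for Igfbp2, Igfbp4, Igfbp6 and Igfbp7 and the lowest for Igf1 and Igf1r. KO3 was the lowest knockout library for Igf2, Igf2r, Igfbp2, Igfbp3, Igfbp4, Igfbp5 and Igfbp7. The SD of log2 CPM within wild type was 0.047 for Igf1r and 0.069 for Igfbp4, against 0.32 and 0.22 within knockout. For Igfbp6 it was 0.63 in wild type and 0.57 in knockout. Adding the muscle score as a covariate left the log2 changes of Igf2 at 0.24, Igf1r at 0.29 and Igfbp7 at -0.30, none of them called. In the 5 libraries rich in muscle RNA, Igf2 was at 0.31 and Igfbp2 at 0.65, Igfbp7 at -0.16 and Igfbp4 at -0.069, again with no call.

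Summed over the 6 genes, binding protein transcripts stood at 2931 ± 137 TPM and 2903 ± 204 TPM, a difference well within the spread of either genotype. Igfbp5 contributed 43.3% ± 3.83 of that sum and 47.8% ± 4.21. Igfbp4 contributed 19.8% ± 1.35 and 18.1% ± 1.54, and Igfbp7 18.8% ± 1.92 and 16.1% ± 2.01. Igfbp2 and Igfbp6 were small parts, at most 3.45% and 2.83%, both in KO4.

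The ratio of ligand to binding protein transcripts was higher in every knockout library. The summed TPM of Igf1 and Igf2 over that of the 6 binding proteins was 0.695, 0.707, 0.769 and 0.81 in WT1 to WT4 and 0.904, 1.00, 0.963 and 0.875 in KO1 to KO4. The means were 0.745 ± 0.0541 and 0.936 ± 0.0574, and the 2 ranges did not overlap. Among the ratios, shares and sums computed from the members, H19 and Insr, it was the only one without overlap. No test is given, since the ratio sums members chosen with results of these data known. Being taken within a library, the ratio does not depend on the scaling between libraries. Igf2 makes up nearly all of its upper part, and the binding protein sum hardly differed. The ratio therefore largely restates the difference of Igf2 in TPM, a gene that edgeR did not call. With the longest transcript as the length its means were 0.84 and 1.06, again without overlap. In the 5 libraries rich in muscle RNA the means were 0.737 and 0.889. Overlap could not arise there, since these libraries are a part of groups that do not overlap.

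**Figure D4:**
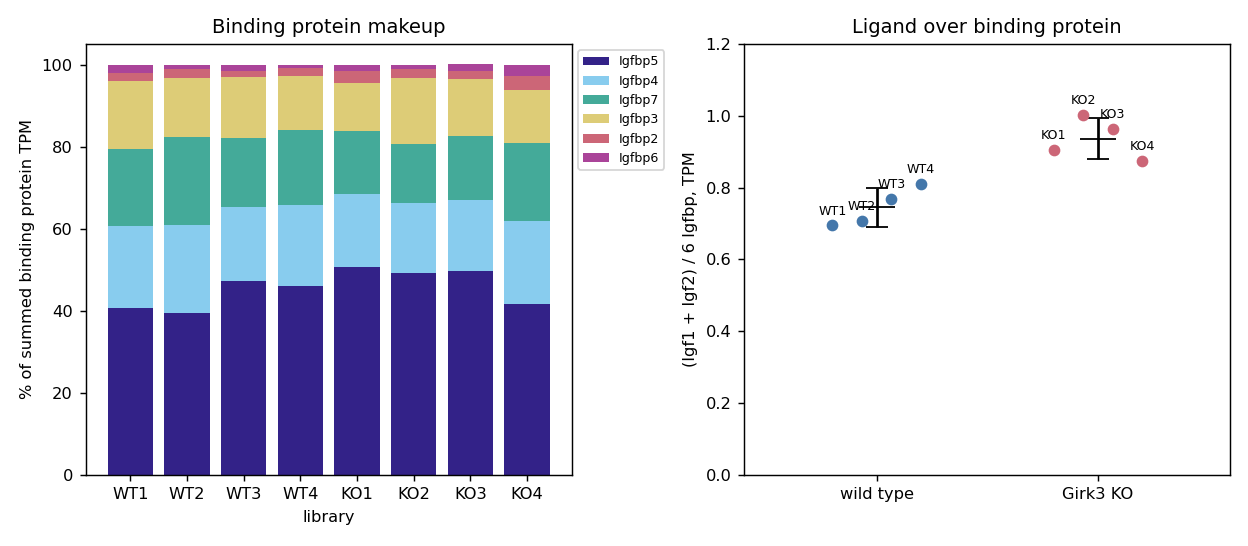
Left: share of each binding protein gene in their summed TPM, by library. Right: summed TPM of Igf1 and Igf2 over that of the 6 binding proteins, 1 point per library with the mean ± SD in black; knockout libraries lie between 0.875 and 1.00, wild-type libraries between 0.695 and 0.81.

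Of the genes that set how much IGF is free, edgeR called 0 of 8 tested, with 4 below 0.05 unadjusted (17.4% of all genes were), and DESeq2 called 2, against 5.37% of all genes (median log2 change -0.091). Pappa2, a protease that cuts IGFBP3 and IGFBP5, was at 28.6 ± 5.83 and 38.5 ± 4.91 CPM (log2 change 0.43 ± 0.137; edgeR adjusted p = 0.153). Stc2, which encodes an inhibitor of PAPP-A, was at 16.7 ± 2.23 and 11.8 ± 1.69 CPM (log2 change -0.50 ± 0.122, edgeR adjusted p = 0.0688). Its groups did not overlap in TMM-scaled CPM but did in TPM, with WT2 at 9.34 and KO4 at 9.74. Stc2 had an adjusted p of 0.00837 in DESeq2, 0.0156 in edgeR with no filter on low counts and 0.0259 without KO4. Pappa2 had 0.0415 in DESeq2. Stc1, which encodes a related inhibitor, and Pappa itself, both named after their values were known, had log2 changes of 0.34 ± 0.139 (edgeR adjusted p = 0.237) and -0.016 ± 0.144. For Stc1, opposite in sign to Stc2, 3 knockout libraries lay above all wild-type libraries and KO4 did not.

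Downstream of the receptor, edgeR called 0 of 11 tested insulin receptor family and adaptor genes, with 7 below 0.05 unadjusted beside 17.4% of all genes, and DESeq2 called 1 beside 5.37% (median log2 change -0.0068). Grb14, an adaptor that inhibits the insulin receptor, was at 13.5 ± 0.788 and 10.4 ± 0.835 CPM, without overlap (edgeR adjusted p = 0.0632, 0.00849 in DESeq2). Ptpn1, a phosphatase that acts on both receptors, had a log2 change of -0.22 ± 0.0755 (edgeR adjusted p = 0.165). Insr, Irs1 and Irs2, picked with values in view, had log2 changes of 0.21, 0.58 and 0.22 with edgeR adjusted p of 0.257, 0.276 and 0.207. Of 23 PI3K, AKT, mTOR and FOXO genes edgeR called 0, with 4 below 0.05 unadjusted, no more than the 17.4% of all genes, and DESeq2 called 1, fewer than 5.37% (median log2 change 0.039). Tsc1, an inhibitor of mTOR complex 1, was at 28.7 ± 4.47 and 38.3 ± 0.584 CPM, without overlap (log2 change 0.42 ± 0.0981; edgeR adjusted p = 0.0601). It passed with library totals (adjusted p = 0.0435), with no filter (0.0191), without WT4 (0.0348) and in DESeq2 (0.00503). Pik3cb had a log2 change of -0.34 ± 0.123 (edgeR adjusted p = 0.182) and passed without WT1 (0.0479).

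**Figure D5:**
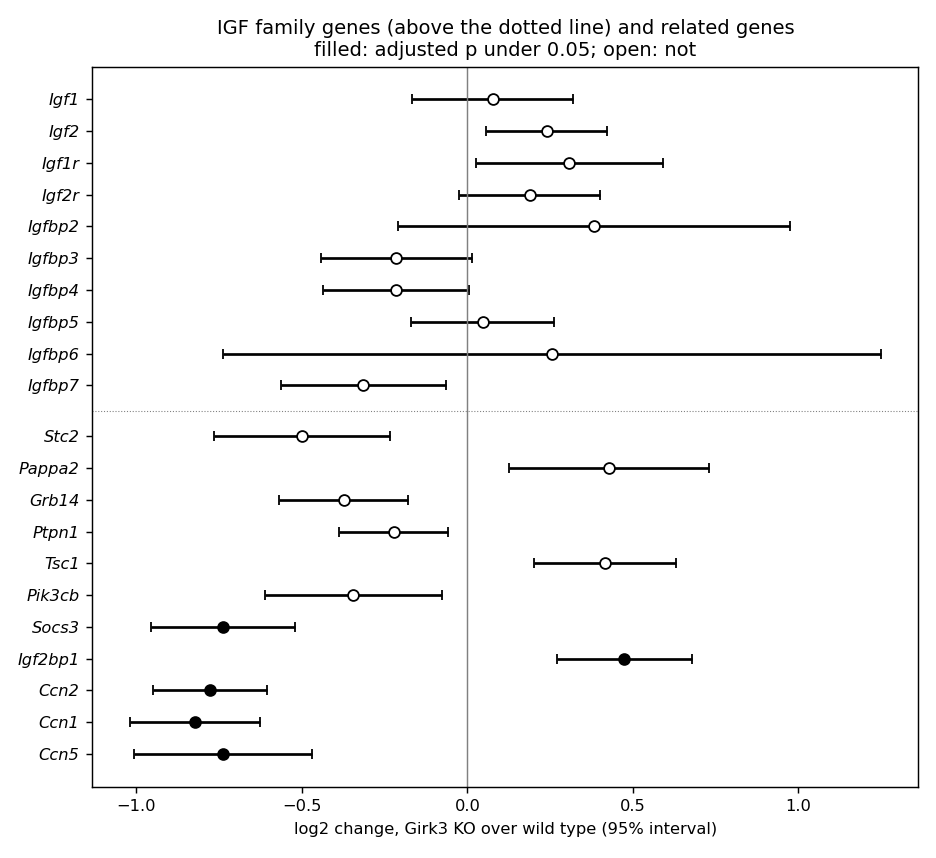
Log2 change of knockout over wild type with its 95% interval for the 10 family genes (above the dotted line) and for related genes chosen by p from 6 lists. Filled points passed edgeR's test at an adjusted p under 0.05 over all genes; the 10 family genes are open and lie between -0.31 and 0.38.

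Of 10 growth hormone axis genes 1 fell in edgeR and none rose, where 0.874% of all genes fell and 0.445% rose (median log2 change -0.043). Socs3, a feedback inhibitor of cytokine receptor signalling that IL-6 family cytokines strongly induce, was at 36.2, 31.1, 39.5 and 34.5 CPM in wild type and at 18.9, 18.9, 22.8 and 24.1 CPM in knockout. All knockout libraries lay below all wild-type libraries, and Socs3 fell by 0.74 ± 0.101 on the log2 scale (edgeR adjusted p = 0.00561). In the 5 libraries rich in muscle RNA the adjusted p was 0.199 at a log2 change of -0.65. The summed macrophage markers were lower in the same libraries, and their part in this fall was not tested. Ghr, the growth hormone receptor gene, and Socs2, a target of STAT5, also picked with values in view, had log2 changes of -0.083 ± 0.0663 and 0.046 ± 0.106 with edgeR adjusted p of 0.548 and 0.866.

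All 8 tested genes of the Igf2 locus and of Igf2 transcript regulation had a log2 change above 0 (median 0.26, where 49.9% of all genes were above 0), and 1 of them rose in edgeR, as did 0.445% of all genes. Igf2bp1, which encodes an RNA-binding protein of fetal tissue named for binding Igf2 transcripts, was at 9.58, 9.54, 9.05 and 10.7 CPM in wild type and at 12.4, 14.8, 14.2 and 12.6 CPM in knockout. The groups did not overlap, and Igf2bp1 rose by 0.47 ± 0.094 on the log2 scale (edgeR adjusted p = 0.0316; 0.000421 in DESeq2). The call was lost without WT1 (0.0625), WT2 (0.104), WT3 (0.0974), WT4 (0.0511), KO2 (0.117) or KO3 (0.107), and in the 5 libraries rich in muscle RNA (0.518), at log2 changes of 0.34 to 0.52. Its relatives Igf2bp2 and Igf2bp3 and the gene H19, picked likewise, had log2 changes of 0.27 ± 0.0894, 0.069 ± 0.117 and 0.026 ± 0.0896 with edgeR adjusted p of 0.161, 0.804 and 0.914. Lin28a (14 counts or fewer in each library) and Lin28b (20 or fewer) were too low to test.

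Of 12 other tested genes whose proteins carry an IGFBP-type domain, 3 fell in edgeR and none rose, beside 0.874% and 0.445% of all genes (median log2 change -0.20). They were Ccn1, Ccn2 and Ccn5, secreted matrix proteins of the CCN family that share this domain but bind IGFs weakly. Ccn5 was at 54.9, 59.2, 75.9 and 66.9 CPM in wild type and at 42.4, 31.8, 35.5 and 44.3 CPM in knockout, without overlap, and fell by 0.74 ± 0.123 on the log2 scale (edgeR adjusted p = 0.0181). Its adjusted p was 0.054 without WT4, 0.0513 without KO2, 0.0644 without KO3 and 0.301 in the 5 libraries rich in muscle RNA. Ccn1, at 102 ± 11.1 and 57.5 ± 5.15 CPM, fell by 0.82 ± 0.0906 (edgeR adjusted p = 0.00144). Ccn2, at 176 ± 15.4 and 103 ± 6.04 CPM, fell by 0.78 ± 0.0788 (edgeR adjusted p = 0.00087), and 23.2% of its exon bases overlap an opposite-strand gene. In those 5 libraries their adjusted p were 0.0722 and 0.0911 at log2 changes of -0.83 and -0.73. No Igfbp member had such a call, and a difference between the sets was not tested. Htra1, a secreted protease with the same domain, had a log2 change of -0.25 ± 0.0897 (edgeR adjusted p = 0.177) and was named after its value was seen.

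Genes with the most similar pattern over the 8 libraries were found by the root mean square difference of centred log2 CPM among 13010 genes of at least 1 CPM. This is a description with no test. For Igf1 they were Rarb, a retinoic acid receptor gene (difference 0.061), Mlkl (0.0666) and Scai (0.0698), where the median over genes was 0.224. For Igf2 they were Lysmd4 (0.0388), Snapc4 (0.0467) and Ciz1 (0.0481), against a median of 0.215. None of these 6 genes passed in edgeR (adjusted p from 0.202 to 0.966).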

How the data were processed

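The authors deposited 1 table of raw counts for 8 libraries, without normalization and by Ensembl gene ID. Tools named in the submitters' processing notes are STAR 2.5.2b, Subread 1.5.2 with featureCounts and bcl2fastq 2.17, with mm10 as the build. No source used here states the annotation release or the strand setting. Symbols matched 48970 of 49315 IDs and GENCODE M21 coordinates 49056. Groups came from the sample titles. Genes passing edgeR's filterByExpr (minimum count 10, minimum total 15) were scaled by TMM. The two-sided quasi-likelihood test came from edgeR 4.0.16 in R 4.3.3, and p-values were adjusted by Benjamini-Hochberg over all tested genes; the fit was tested on simulated data. Intervals are at 95% and unadjusted. Log2 CPM used a prior count of 2. TPM used the union of exons. Alternatives were DESeq2 1.42.0, other scaling, no filter, covariates and left-out libraries. One count was at most 0.0283 CPM and the floor of 3 counts at most 0.0848 CPM, counting error only. P-values weigh the difference between genotypes against the spread among libraries of the same genotype, which may be partly technical. The members and lists were chosen with earlier results of these data known. Named genes were all members, the called genes of each list (up to 5) or its 2 of smallest p, and the 3 nearest patterns to each ligand. Figures were drawn with matplotlib 3.10.9.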

Additional observations from a re-analysis of the deposited data

How the results depend on the processing

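Of 150 refits of the 10 members (15 alternatives each), 144 kept direction and side of the threshold, 3 passed it and 3 changed sign. Those that passed were Igf2 in DESeq2 and Igf1r and Igfbp7 without KO4, as given above. With 1 library left out, the log2 change ran from -0.029 to 0.11 for Igfbp5, below 0 without KO1 or WT2 (-0.018), and from -0.087 to 0.57 for Igfbp6, below 0 without KO4. The count of called members was 0 under every edgeR setting with all 8 libraries, 1 in DESeq2 and 0 to 2 with 1 library left out. The count of called genes, 234, was 355 with no filter on low counts, 952 in DESeq2, 8 in the 5 libraries rich in muscle RNA and 57 to 608 with 1 library left out (57 without KO2, 75 without WT3, 79 without WT2, 82 without KO3, 105 without WT4 and 608 without KO4). Of the tested genes in the 6 lists 5 were called, 9 in DESeq2, 0 in those 5 libraries and 3 to 9 with 1 library left out (3 without KO2 or KO3, 9 without KO4). With the replicate number as a block 126 genes were called, no member and 4 list genes; Igf2bp1 was the one lost (adjusted p = 0.0927). Deviations of same-numbered libraries had correlations of 0.255, -0.179, 0.34 and -0.00498 over genes. In no same-numbered pair was each library the best match of the other. The labels state no pairing, so the numbers were not used to pair samples. The longest transcript as length moved the mean TPM of Igf2r, Igfbp4, Igfbp5 and Igfbp7 by more than 1 SD, to 91.8, 485, 1008 and 389. Among the members and named list genes, Dixon's test marked 0 of 42 groups of 4 libraries, and 2.1 would be marked by chance. Igfbp6, with the widest interval, is limited by the spread between libraries more than by its 360 to 954 counts.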
